A study of Mus musculus with 6 samples.

Results

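The integrin and laminin genes of the mouse were followed in wild type and p53-deficient haploid embryonic stem cells. Members were taken by name from the deposited table: protein-coding genes for the integrin alpha subunits, for integrin beta 1 to 8, and for the laminin alpha, beta and gamma chains. The rule gave 37 of 54532 listed genes, 26 integrins (18 alpha, 8 beta) and 11 laminins (5 alpha, 3 beta, 3 gamma). Poly(A)-selected RNA was sequenced from 6 libraries, 3 labelled wild type (WT) haploid and 3 labelled as p53-deficient haploid, all of strain 129SV and with no treatment, age or passage given. The p53-deficient libraries carry a knock-in style name in their titles (P53ki), whereas the series design speaks of a knockout. The sources do not say how the allele was made, whether a group was 1 clone, or whether replicates came from different cultures. The p-values therefore set the difference between the groups against the spread of these libraries only, and that spread may be technical. Differences between cell lines and the effect of losing p53 cannot be told apart here.

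Integrins are cell surface receptors made of an alpha and a beta subunit. The alpha subunit largely sets which matrix protein is bound, and the beta subunit links the pair to the actin cytoskeleton through talin and kindlin. Laminins are secreted trimers of an alpha, a beta and a gamma chain and form the sheet on which basement membranes assemble. Mouse embryonic stem cells are known to attach to laminin through alpha 6 beta 1 and to fibronectin through alpha 5 beta 1, and laminin of the alpha 5 and alpha 1 type is among the first basement membrane proteins of the embryo.

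Expression is given as FPKM, a fragment count scaled by gene length and by library depth, so levels of different genes can be set side by side. Reads in listed genes, rebuilt from FPKM and gene length, numbered between 11536412 and 21218976 per library, the fewest in p53-deficient replicate 2. Trp53 itself stood at 68.0 ± 3.03 FPKM in WT and at 9.80 ± 0.155 FPKM in p53-deficient libraries (SD, n = 3 per group), with groups that did not overlap. Of the 10 embryonic stem cell markers, all were above 30 FPKM in both groups, with Pou5f1 at 371 and 407 FPKM and Nanog at 330 and 221 FPKM. Their levels were not the same in the groups: 4 were higher in p53-deficient libraries, Utf1 the most (61.6 and 303 FPKM). Another 5 were lower, Dppa5a the most (2007 and 1075 FPKM), and 1 did not pass. Of 33 fibroblast markers, 31 were tested and 31 were lower in p53-deficient libraries. The shares over all genes tested were 31.3% lower and 35.3% higher. Their summed level ran from 1601 to 1619 FPKM in WT but only from 285 to 304 FPKM in p53-deficient libraries, and no marker was at 0 in either group. Summed FPKM of 4 Y-linked genes was 3.51 to 3.94 in WT and 0.330 to 0.395 in p53-deficient libraries. The part of these markers in the differences below was not tested. In RNA from bulk cultures, fewer cells of a type and less RNA per cell cannot be told apart.

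Of the 37 members, 23 reached a mean of 0.5 FPKM over the 6 libraries and were tested: 15 integrins and 8 laminins. The groups were compared with limma on log2(FPKM + 1), with Benjamini-Hochberg adjustment over all 15144 genes tested and a threshold of 0.05 on adjusted p. Lower levels in p53-deficient cells were called for 14 members and higher levels for 5, leaving 4 that did not pass. Among all genes tested 66.5% were called, 31.3% lower and 35.3% higher, so a call by itself was common in these libraries. At least 2-fold on the log2(FPKM + 1) scale, 4 members were lower and 2 higher, where the shares over all genes were 6.30% and 3.42%. The median log2 fold change was -0.37 over the members and 0.03 over all genes tested, and it was -0.07 over integrins and -0.81 over laminins. The 2 groups did not overlap for 20 of the 23 members (5 higher and 15 lower), and for 71.4% of all genes tested (37.7% higher and 33.7% lower). Of the 23 tested, 5 passed the filter on low values through a single group (Lama4, Itgb4, Itga11 and Itga2b through WT, Itga1 through p53-deficient). Their being tested depended on the group where they were high, which favours large differences among such genes.

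**Figure D1:**
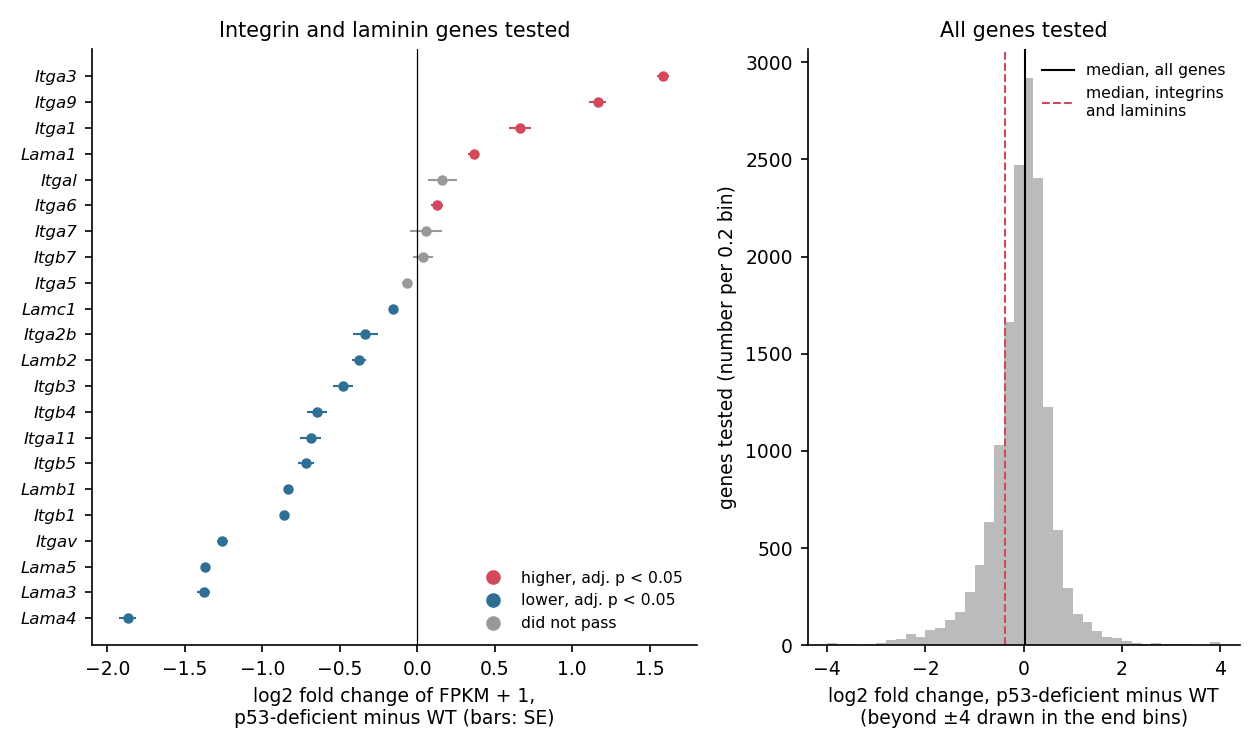
Left: log2 fold change of FPKM + 1 (x axis, p53-deficient minus WT, bars are SE from limma) for 22 integrin and laminin genes tested (y axis), coloured by call. Right: number of genes tested per bin of log2 fold change, with the median over all genes (0.03, solid line) and over the 23 members (-0.37, dashed line). The members run from Lama4 at -1.87 to Itga3 at 1.59.

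Among the 10 integrin alpha subunits tested, 4 rose, 3 fell and 3 did not pass. These counts are near the shares over all genes tested, 35.3% higher and 31.3% lower. Itga3, which encodes the alpha 3 subunit of a laminin receptor common in epithelia, rose 3.40-fold in FPKM, and Itgav, which encodes the alpha V subunit of receptors for vitronectin and fibronectin, fell to 34.5% of WT. These opposite changes are the largest, in FPKM, among alpha subunits of at least 5 FPKM in either group, and the starts of both genes are shown for comparison. Each sequence is the RefSeq promoter (GRCm38.p6, the same coordinates as mm10), from 250 bases before to 50 after the start of transcription, written 5′ to 3′ on the strand of the gene. Capitals mark the GC box GGGCGG, a binding motif of SP and KLF factors, searched on both strands. Itga3 is read from chr11:95076665-95076964 on the minus strand and Itgav from chr2:83724147-83724446 on the plus strand.
Itga3: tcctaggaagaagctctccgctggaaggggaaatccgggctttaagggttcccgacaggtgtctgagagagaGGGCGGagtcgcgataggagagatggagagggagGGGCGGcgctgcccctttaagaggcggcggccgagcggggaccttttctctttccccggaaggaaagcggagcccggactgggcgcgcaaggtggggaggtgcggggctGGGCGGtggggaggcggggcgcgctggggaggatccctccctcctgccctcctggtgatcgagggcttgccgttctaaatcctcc
Itgav: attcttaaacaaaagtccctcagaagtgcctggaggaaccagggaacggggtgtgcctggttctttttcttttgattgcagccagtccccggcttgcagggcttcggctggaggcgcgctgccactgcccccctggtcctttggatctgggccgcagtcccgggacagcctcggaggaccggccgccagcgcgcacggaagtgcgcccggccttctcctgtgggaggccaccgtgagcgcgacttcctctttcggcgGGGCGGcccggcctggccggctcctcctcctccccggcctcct
Both windows hold 24 CG dinucleotides, against a median of 7 over all 32851 promoters of the same length, so the genes that moved in opposite directions were alike in CG content. Itga3 has 3 GC boxes and Itgav 1. Promoters were matched for 23 of the 37 members. A GC box was found in 11 of these 23 and in 35.7% of all promoters, the AP-1 motif TGANTCA in 2 of 23 and in 7.81% of all, and the TATA motif TATAAA in 0 of 23 and in 13.6% of all. A p53 half-site, by its consensus, was present in 1 of 23 (Itga9) and in 8.36% of all promoters. The start used for that Itga9 window lies 105002 bases from the gene start in the deposited table. A match describes letters only and is no evidence that a factor binds.

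Of the 3 laminin-binding alpha subunits, 2 were called higher and 1 did not pass. Itga3 (chromosome 11, 95044474 to 95076801, minus strand, mm10; ENSMUSG00000001507) stood at 4.80, 4.98 and 5.32 FPKM in WT and at 17.3, 16.8 and 17.2 FPKM in the p53-deficient libraries. All p53-deficient libraries lay more than 10 FPKM above all WT libraries, and the log2 fold change was 1.59 with SE 0.0403 (limma adjusted p = 3.97e-07), the largest rise of any member on that scale. Itga6, which encodes the alpha 6 subunit and is the laminin receptor chain typical of embryonic stem cells, stood at 13.8, 12.8 and 13.3 FPKM in WT and at 14.7, 14.2 and 15.0 FPKM in p53-deficient libraries. The groups did not overlap but lay close together, and the small rise (log2 fold change 0.13, SE 0.0364, limma adjusted p = 0.0189) did not hold under other scalings. Adjusted p was 0.425 with libraries scaled by their median log2 ratio and 0.102 after quantile normalization. It was 0.0629 without WT replicate 2, 0.0546 without WT replicate 3 and 0.0596 without p53-deficient replicate 3. Part of the Itga6 transcript, 326 bases, also aligns to a processed pseudogene listed at 1.25 FPKM on average. Itga7, the alpha subunit best known from muscle, was low at 1.15, 1.11 and 1.01 FPKM in WT and 1.19, 0.909 and 1.46 FPKM in p53-deficient libraries. Its groups overlapped and it did not pass (limma adjusted p = 0.648, 95% interval of the log2 fold change -0.19 to 0.31). The 3 genes together summed to 19.4 ± 0.441 FPKM in WT and to 32.9 ± 0.859 FPKM in p53-deficient libraries (SD, n = 3 per group). Of the 6 trophoblast and simple keratin markers tested, 5 were higher and 1 did not pass, where 35.3% of all genes tested were higher. Krt8 went from 20.6 ± 0.871 to 33.9 ± 0.726 FPKM, Krt18 from 14.9 ± 0.882 to 27.6 ± 0.557 FPKM and Eomes from 1.43 ± 0.172 to 2.88 ± 0.232 FPKM. Of the 2 untested, the keratin gene Krt7 went the other way, from 0.323 ± 0.0515 to 0.133 ± 0.0325 FPKM. Elf5 stood at 0.0201 and 0.0625 FPKM, with overlapping groups. The 8 markers of that list summed to between 59.2 and 62.5 FPKM in WT and between 90.5 and 92.4 FPKM in p53-deficient libraries. Most of that lay in Krt8, Krt18 and Tfap2c (20.3 and 23.5 FPKM). None of the 8 was at 0 as a group mean, and their part in the rise of Itga3 was not tested.

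Of the 4 alpha subunits that recognise the RGD sequence of fibronectin and vitronectin, 3 were tested, and of these 2 fell and 1 did not pass. Itgav (chromosome 2, 83724397 to 83806916, plus strand; ENSMUSG00000027087) stood at 7.96, 7.80 and 8.001 FPKM in WT and at 2.73, 2.78 and 2.69 FPKM in p53-deficient libraries. Every WT library was more than 2 times every p53-deficient one, with a log2 fold change of -1.26 (SE 0.0361, limma adjusted p = 6.27e-07). Itga5, the alpha 5 subunit of the fibronectin receptor and by FPKM the most abundant alpha subunit in both groups, stood at 20.2, 20.0 and 20.3 FPKM in WT and 19.9, 18.5 and 19.2 FPKM in p53-deficient libraries. The groups lay side by side without overlap, the p53-deficient mean was 95.2% of WT, and Itga5 did not pass (limma adjusted p = 0.104, 95% interval of the log2 fold change -0.15 to 0.01). It was called lower after scaling by the median log2 ratio (adjusted p = 0.00288), after quantile normalization (0.00431) and without p53-deficient replicate 1 (0.0392). Itga2b, the alpha IIb subunit known from platelets, fell from 0.758 ± 0.0553 to 0.395 ± 0.0826 FPKM. Itga8, whose product binds nephronectin, was below the filter. It held 299 rebuilt reads over the WT libraries and 67 over the p53-deficient ones, which after adjustment for depth is a ratio of 3.89 (95% exact binomial interval 2.98 to 5.15, counting error only).

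Collagen-binding alpha subunits and the pair Itga4 and Itga9 were low and went both ways. Itga9, whose product binds tenascin C and other ligands, stood at 1.45, 1.58 and 1.31 FPKM in WT and at 4.47, 4.50 and 4.50 FPKM in p53-deficient libraries. The groups were well apart and the gene rose 3.10-fold in FPKM (log2 fold change 1.17, SE 0.0556, limma adjusted p = 5.32e-06). Its relative Itga4, a receptor subunit for VCAM1 and fibronectin, was not tested and had 273 reads in WT and 89 in p53-deficient libraries (ratio 2.68, interval 2.10 to 3.44). Itga1, which encodes the alpha 1 subunit of a collagen receptor, rose from 0.182 ± 0.0266 to 0.873 ± 0.0655 FPKM (limma adjusted p = 0.000242). Itga1 passed the filter on low values through the p53-deficient group only, so its being tested depended on the group where it was high. Its neighbour Itga2, 21.0 kb away on chromosome 13 and also a collagen receptor gene, had 41 reads in WT and 10 in p53-deficient libraries, the other direction (ratio 3.58, interval 1.76 to 8.01). Itga11, a collagen receptor subunit of fibroblasts, fell from 1.21 ± 0.0873 to 0.369 ± 0.0303 FPKM (limma adjusted p = 0.000153). Its level in p53-deficient libraries was 30.6% of WT, within the 7.85% to 48.9% spanned by the fibroblast markers. Itga11 passed the filter on low values through WT only, so its being tested depended on the group where it was high. Itga10 was not tested, at 0.376 ± 0.0181 and 0.329 ± 0.0215 FPKM. The log2(FPKM + 1) scale compresses such low genes: with a pseudocount of 0.1 the log2 fold change of Itga1 was 1.79 in place of 0.66, and that of Itga11 -1.48 in place of -0.69.

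Integrin genes named for leukocytes were low, at about 1 FPKM or less in either group. Itgal, the alpha L subunit, averaged 0.869 ± 0.168 (WT) and 1.09 ± 0.140 FPKM (p53-deficient) with overlapping groups, and did not pass (limma adjusted p = 0.171, but 0.0324 after quantile normalization and 0.0446 with voom weights). Itgae, a receptor subunit for E-cadherin, had 86 reads in WT and 138 in p53-deficient libraries (ratio of WT to p53-deficient 0.544, interval 0.411 to 0.717). Itgb2, the beta subunit that pairs with alpha L, M, X and D, had 82 reads in WT and 5 in p53-deficient libraries (ratio 14.3, interval 5.89 to 45.2), although a 228-base processed pseudogene aligns to it over its whole length. The remaining leukocyte alpha genes Itgam, Itgad and Itgax each had at most 21 reads per group, and with intervals that included 1 no difference was detectable at this depth. Ptprc, the pan-leukocyte gene, stood at 0.0165 and 0.0196 FPKM. The 11 leukocyte markers summed to 50.7 to 52.97 FPKM in WT and 62.7 to 64.3 FPKM in p53-deficient libraries, most of it in Laptm5 (37.2 and 53.02 FPKM) and Cd68 (12.1 and 8.57 FPKM), and none was at 0.

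**Figure D2:**
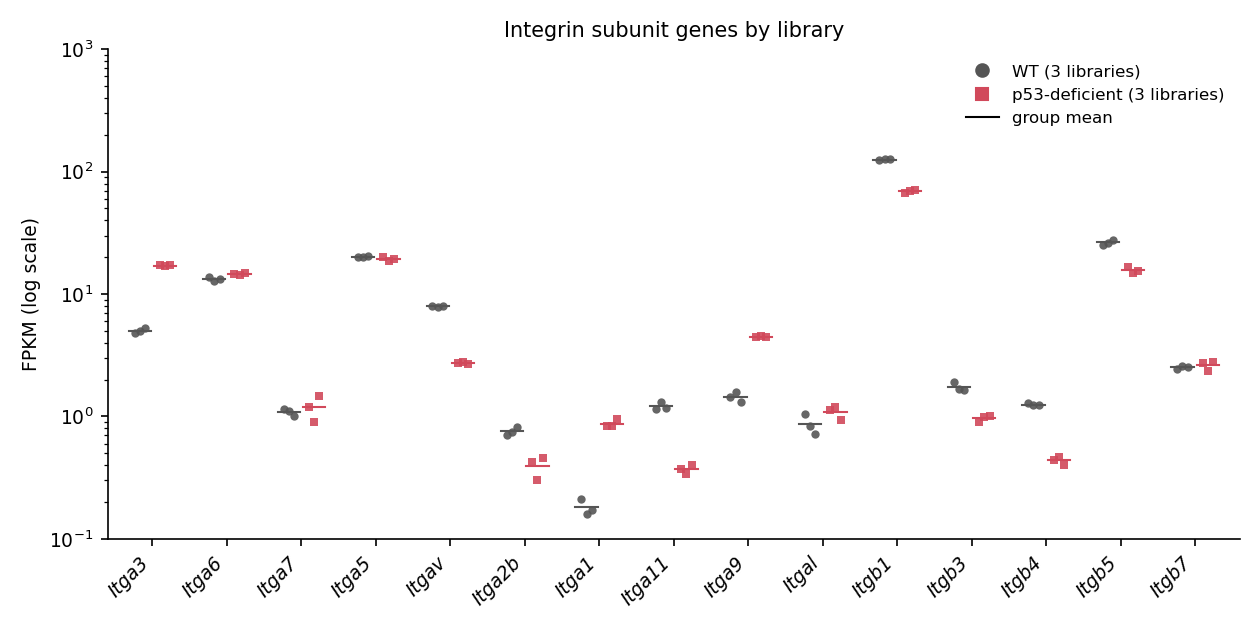
FPKM on a log axis (y) of the 15 integrin genes tested (x axis, alpha subunits by ligand class, then beta subunits) in each WT library (grey circles) and each p53-deficient library (red squares), with group means as lines. Itga3, Itga9 and Itga1 lie higher in p53-deficient libraries, while Itgav, Itgb1 and Itgb5 lie lower.

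Beta subunits were lower or did not pass. Of 5 tested, 4 were lower and 1 did not pass, where 31.3% of all genes tested were lower. Itgb1, the shared partner of most alpha subunits and the most abundant member of all (chromosome 8, 128685654 to 128733200, plus strand; ENSMUSG00000025809), stood at 125, 126 and 126 FPKM in WT and at 67.3, 69.0 and 70.4 FPKM in p53-deficient libraries. The libraries of each group lay within 4 FPKM of each other, and the gap between the groups was more than 50 FPKM (log2 fold change -0.86, SE 0.0236, limma adjusted p = 5.41e-07). Itgb5, a partner of alpha V in the vitronectin receptor, stood at 25.3, 26.3 and 27.8 FPKM in WT and at 16.7, 14.9 and 15.5 FPKM in p53-deficient libraries (log2 fold change -0.72, SE 0.0515, limma adjusted p = 3.30e-05). Again the groups did not overlap, and a processed pseudogene of 343 bases, listed at 1.66 FPKM on average, aligns to Itgb5 over its whole length. Itgb3, another alpha V partner, stood at 1.91, 1.68 and 1.63 FPKM in WT and 0.902, 0.997 and 0.99896 FPKM in p53-deficient libraries, lower in each of the latter (limma adjusted p = 0.000754). Itgb4, the subunit that pairs with alpha 6 in hemidesmosomes, fell from 1.25 ± 0.0261 to 0.438 ± 0.0325 FPKM. Itgb7, which pairs with alpha 4 and alpha E, stood at 2.43, 2.58 and 2.54 FPKM in WT and at 2.71, 2.34 and 2.78 FPKM in p53-deficient libraries, with overlapping groups (limma adjusted p = 0.632, 95% interval of the log2 fold change -0.11 to 0.19). Itgb8 had 19 and 2 reads and Itgb6 1 and 0, too few for a statement on Itgb6.

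A gene's share of its class within a library does not depend on how libraries were scaled against each other. Of summed integrin alpha FPKM, Itga3 held 8.81%, 9.32% and 9.85% in WT and, well above that, 26.9%, 27.2% and 26.8% in p53-deficient libraries. Itgav went the other way, with 14.6%, 14.6% and 14.8% in WT and 4.24%, 4.50% and 4.19% in p53-deficient libraries. Itga5 kept the first place with 37.4% ± 0.231 and 30.3% ± 0.559 (SD, n = 3 per group), while second place passed from Itga6 in WT (24.7% ± 0.656) to Itga3. In FPKM the order of Itga3 and Itga6 was reversed: Itga3 per Itga6 was 0.379 ± 0.0278 in WT and 1.17 ± 0.0191 in p53-deficient libraries. These orders rest on the division by gene length. In rebuilt reads Itga6 led in both groups, with 6897 in WT and 6650 in p53-deficient libraries. Itga3 had 1658 and 4920 reads, and Itga5 had 5729 and 4792. Among beta subunits Itgb1 held 79.5% ± 0.509 and 77.7% ± 1.21 of the FPKM, while the summed beta subunit FPKM was 158 ± 1.82 in WT and 88.6 ± 1.33 in p53-deficient libraries.

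Sums of alpha and of beta subunits differed between the groups in opposite directions. Summed alpha subunit FPKM was 53.9 ± 0.543 in WT and 63.4 ± 1.41 in p53-deficient libraries, higher in each of the latter. That rise came from Itga3, which went from 5.03 ± 0.264 to 17.1 ± 0.251 FPKM, more than the sum itself. The other alpha subunits together were lower, as the beta subunits were. Itgb1 per summed FPKM of its 12 possible alpha partners was 2.39, 2.46 and 2.42 in WT and 1.08, 1.16 and 1.13 in p53-deficient libraries. In FPKM the ratio was above 1 in every library and lower in each p53-deficient one. Its place above 1 rests on the division by gene length. Its difference between groups was -1.30 on FPKM and -0.697 on reads not divided by gene length. The laminin-binding alpha subunits per RGD-binding alpha subunits stood at 0.657 ± 0.0101 in WT and 1.46 ± 0.0336 in p53-deficient libraries. With 3 libraries against 3 the exact two-sided permutation p of each of these differences that separated the groups was 0.1, the smallest this design allows. Of 37 shares computed, 29 had groups that did not overlap, and the Benjamini-Hochberg adjusted p was at least 0.128. These ratios of gene sums were chosen after the values were seen.

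**Figure D3:**
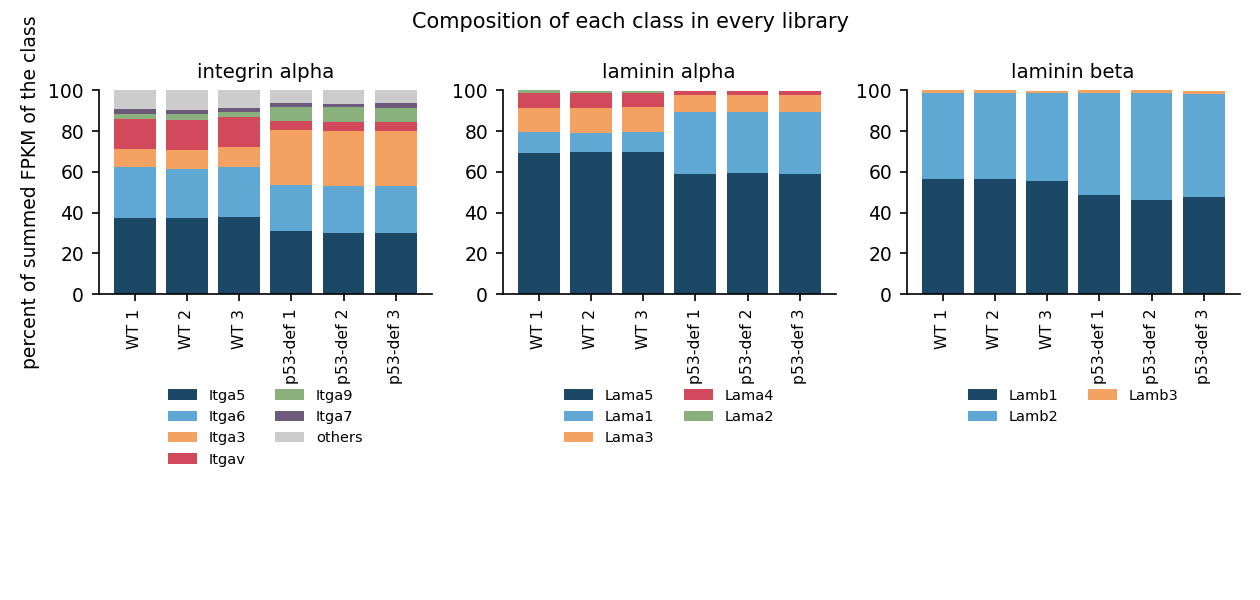
Share of the summed FPKM of a class (y axis, percent) held by each gene in every library (x axis), for integrin alpha, laminin alpha and laminin beta genes. In p53-deficient libraries Itga3 takes 26.8% to 27.2% of the integrin alpha FPKM and Lama1 30.2% to 30.6% of the laminin alpha FPKM.

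Laminin alpha chains, which carry the sites that integrins bind, fell except for one. Lama5 (chromosome 2, 180176373 to 180225859, minus strand; ENSMUSG00000015647), the most abundant alpha chain, stood at 42.2 FPKM in each WT library and at 15.4, 15.7 and 16.0 FPKM in the p53-deficient libraries. Its fall to 37.2% of WT was far beyond the spread (log2 fold change -1.37, SE 0.0241, limma adjusted p = 9.19e-08). Lama1, the alpha chain of the classical laminin of early embryos (chromosome 17, 67697259 to 67822647, plus strand), stood at 6.24, 5.94 and 6.02 FPKM in WT and at 8.003, 7.95 and 8.33 FPKM in p53-deficient libraries. It was the only laminin chain of the 8 tested that rose (log2 fold change 0.36, SE 0.0362, limma adjusted p = 0.000147), and its log2 fold change lay between 0.28 and 0.42 under the alternatives tried. Lama3, the alpha chain of epithelial anchoring laminin (chromosome 18), stood at 7.18, 7.38 and 7.42 FPKM in WT and at 2.15, 2.19 and 2.27 FPKM in p53-deficient libraries (log2 fold change -1.38, SE 0.0394, limma adjusted p = 6.23e-07). The groups were apart by about 5 FPKM.

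Of the 23 members tested, Lama4 had the largest fall on the log2(FPKM + 1) scale. This alpha chain, known from blood vessel walls and mesenchymal cells (chromosome 10, 38965515 to 39110188, plus strand), stood at 4.51, 4.54 and 4.23 FPKM in WT and at 0.504, 0.466 and 0.484 FPKM in p53-deficient libraries. The p53-deficient mean was 10.9% of WT, a log2 fold change of -1.87 (SE 0.0529, limma adjusted p = 5.94e-07) that became -2.95 with a pseudocount of 0.1. Lama2, the alpha chain of muscle basement membrane, was below the filter and had 617 reads in WT and 64 in p53-deficient libraries (ratio 8.41, interval 6.50 to 11.1). For comparison, the 31 fibroblast markers tested stood at a median of 17.6% of WT (range 7.85% to 48.9%). Of the 14 members called lower, 6 had a level within that range, namely Lama4, Lama3, Itga11, Itgav, Itgb4 and Lama5, and the other 8 kept more. Of these 6, Lama4, Itga11 and Itgb4 passed the filter on low values through WT only, so their being counted here depended on their level in WT. How many of all genes called lower fell within that range was not counted. The part of fibroblast RNA in these 6 was not tested. The alpha chains together went from 60.7 ± 0.145 to 26.6 ± 0.545 FPKM.

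Lamb1, Lamb2 and Lamc1 fell, each by less on the log2 scale than Lama3, Lama4 or Lama5. Lamb1, the beta chain paired with Lama1 and Lama5 in early basement membranes, stood at 12.9, 12.5 and 12.4 FPKM in WT and at 6.66, 6.74 and 6.54 FPKM in p53-deficient libraries (log2 fold change -0.83, SE 0.0308, limma adjusted p = 1.75e-06). Lamb2, its relative of mature basement membranes, stood at 9.61, 9.44 and 9.69 FPKM in WT and 6.86, 7.70 and 6.96 FPKM in p53-deficient libraries (limma adjusted p = 0.000431). Lamb1 led in WT with 56.1% ± 0.535 of the laminin beta FPKM, and Lamb2 led in p53-deficient libraries with 51.2% ± 1.41. That change of lead rests on the division by gene length. In rebuilt reads Lamb1 was ahead of Lamb2 in both groups, with 7195 and 3355 in WT and 3308 and 2166 in p53-deficient libraries. Lamb3, the beta chain of epithelial anchoring laminin, was not tested and held 106 reads in WT and 64 in p53-deficient libraries (ratio 1.45, interval 1.05 to 2.00). At 0.281 ± 0.0459 and 0.188 ± 0.0269 FPKM it was far below Lamb1 and Lamb2 in either group.

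Lamc1, the gamma chain of most laminins (chromosome 1, 153218922 to 153332786, minus strand; ENSMUSG00000026478), stood at 69.9, 68.8 and 70.9 FPKM in WT and at 62.2, 62.1 and 63.7 FPKM in p53-deficient libraries. The groups did not overlap, and the fall was the smallest of the called laminins (log2 fold change -0.15, SE 0.0225, limma adjusted p = 0.000934). Lamc3 had 11 and 2 reads. In WT the gamma 1 chain and the alpha chains were of similar level, with 1.15 ± 0.0179 Lamc1 per summed alpha chains, and in p53-deficient libraries the ratio was 2.36 ± 0.0197. Within the alpha chains Lama5 went from 69.6% ± 0.159 to 59.1% ± 0.292 of the FPKM and Lama1 from 9.998% ± 0.239 to 30.5% ± 0.265 (SD, n = 3 per group). Lama5 per Lama1 stood at 6.96 ± 0.176 in WT and 1.94 ± 0.0266 in p53-deficient libraries.

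**Figure D4:**
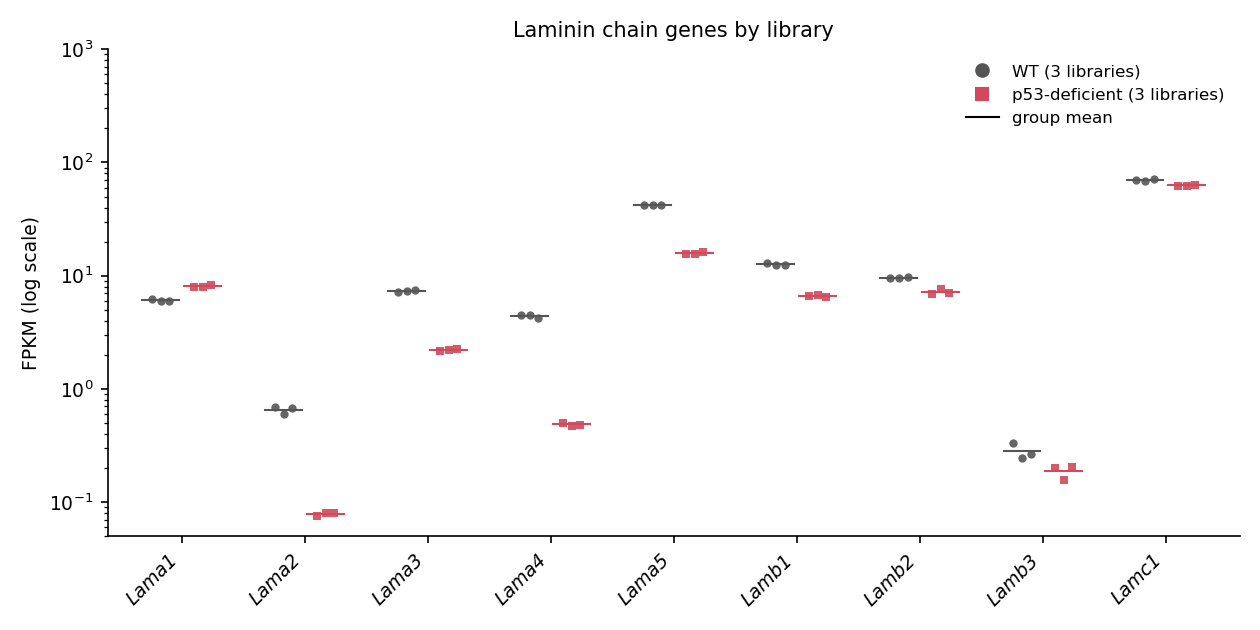
FPKM on a log axis (y) of 9 laminin chain genes (x axis) in each WT library (grey circles) and each p53-deficient library (red squares), with group means as lines. Lama1 alone lies higher in p53-deficient libraries. Lama4 and Lama2 show the widest gaps.

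Most measured partners of laminin in the basement membrane also fell. Of 18 tested genes of that list, 13 were lower, 3 higher and 2 did not pass, with a median log2 fold change of -0.60. The shares over all genes tested were 31.3% lower and 35.3% higher. Type IV collagen, which forms the second network of basement membranes, fell steeply: Col4a2 went from 30.6 ± 0.101 to 4.17 ± 0.0349 FPKM and Col4a1 from 34.6 ± 0.206 to 6.03 ± 0.126 FPKM. These levels, 13.6% and 17.4% of WT, lay within the 7.85% to 48.9% spanned by the fibroblast markers, whose part was not tested. Pxdn, the peroxidase that cross-links type IV collagen, fell from 3.71 ± 0.206 to 1.19 ± 0.0959 FPKM. Rises were seen in Bcam, a laminin alpha 5 receptor outside the integrin family (15.1 ± 0.344 to 41.5 ± 1.56 FPKM), in Ntn1, a laminin-related guidance protein (6.11 ± 0.173 to 12.1 ± 0.285 FPKM), and in Nid2, a linker between laminin and collagen (61.1 ± 2.55 to 88.8 ± 1.89 FPKM). Dag1, which encodes the laminin receptor dystroglycan, was 39.8 ± 0.638 and 37.4 ± 1.4995 FPKM and did not pass (limma adjusted p = 0.0542), although other settings called it lower, among them scaling by the median log2 ratio (0.00323) and leaving out p53-deficient replicate 3 (0.0108). Summed FPKM of 11 primitive endoderm markers, a cell type that secretes laminin and type IV collagen, was 10.1 in each WT library and 5.46 to 6.83 in p53-deficient libraries. Of the 5 tested, 4 were lower, among them Gata6 (0.992 ± 0.0994 to 0.152 ± 0.0529 FPKM), and Amn was higher (0.565 ± 0.0416 to 2.61 ± 0.804 FPKM). Among the untested, Gata4 and Sox17 had group means of 0.382 FPKM or less, Sox7 was 0.291 ± 0.0275 FPKM in WT and 0.656 ± 0.0982 in p53-deficient libraries, and none of the 11 was at 0 as a group mean. The part of these cells in the laminin differences was not tested.

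Integrin ligands other than laminin were mostly lower. Of 19 tested, 14 were lower, 3 higher and 2 did not pass, with a median log2 fold change of -1.69, although 5 of the 24 listed genes are also in the fibroblast list. Over all genes tested, 31.3% were lower and 35.3% higher. Thbs1 (thrombospondin 1), Col1a1 (type I collagen) and Postn (periostin), all of them fibroblast markers here, fell to 14.6%, 14.7% and 13.5% of WT. Fn1, which encodes fibronectin, the main ligand of alpha 5 beta 1, fell from 151 ± 1.86 to 46.0 ± 1.15 FPKM, and was singled out after its values were seen. Tgfb1, whose latent form binds alpha V integrins, rose from 1.93 ± 0.108 to 3.41 ± 0.186 FPKM. Icam1, a ligand of alpha L beta 2, rose from 26.5 ± 1.08 to 33.2 ± 0.318 FPKM, and Cdh1 (E-cadherin, bound by alpha E beta 7) from 62.5 ± 0.928 to 73.2 ± 1.65 FPKM. Spp1 (osteopontin), the most abundant ligand of the list, was 346 ± 2.15 and 366 ± 14.9 FPKM and did not pass (limma adjusted p = 0.0665, 0.00442 with voom weights, and 0.0101 when p53-deficient replicate 2 was left out).

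Components of focal adhesions, the structures that join integrins to actin, went both ways. Of 36 tested, 19 were lower, 11 higher and 6 did not pass, with a median log2 fold change of -0.20. Among all genes tested 31.3% were lower and 35.3% higher. The largest rises were in Parvb, which encodes beta-parvin (7.90 ± 0.378 to 22.9 ± 0.910 FPKM), in Tns3, a tensin (21.4 ± 0.525 to 34.9 ± 1.04 FPKM), and in Pxn, which encodes the scaffold paxillin (6.29 ± 0.286 to 10.3 ± 0.296 FPKM). Parva, the alpha-parvin relative of Parvb, fell from 4.71 ± 0.177 to 1.17 ± 0.135 FPKM, so the more abundant parvin remained Parvb but by a wider margin. The membrane partner Cd47 fell from 7.94 ± 0.185 to 1.08 ± 0.0750 FPKM, and the tetraspanin Cd81 was 107 ± 1.41 in WT and 26.5 ± 0.604 FPKM in p53-deficient libraries. Bcar1 (p130Cas) was 12.4 ± 0.0778 and 13.4 ± 1.07 FPKM and did not pass (limma adjusted p = 0.175, 0.0485 with voom weights, and 0.0190 when p53-deficient replicate 2 was left out).

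**Figure D5:**
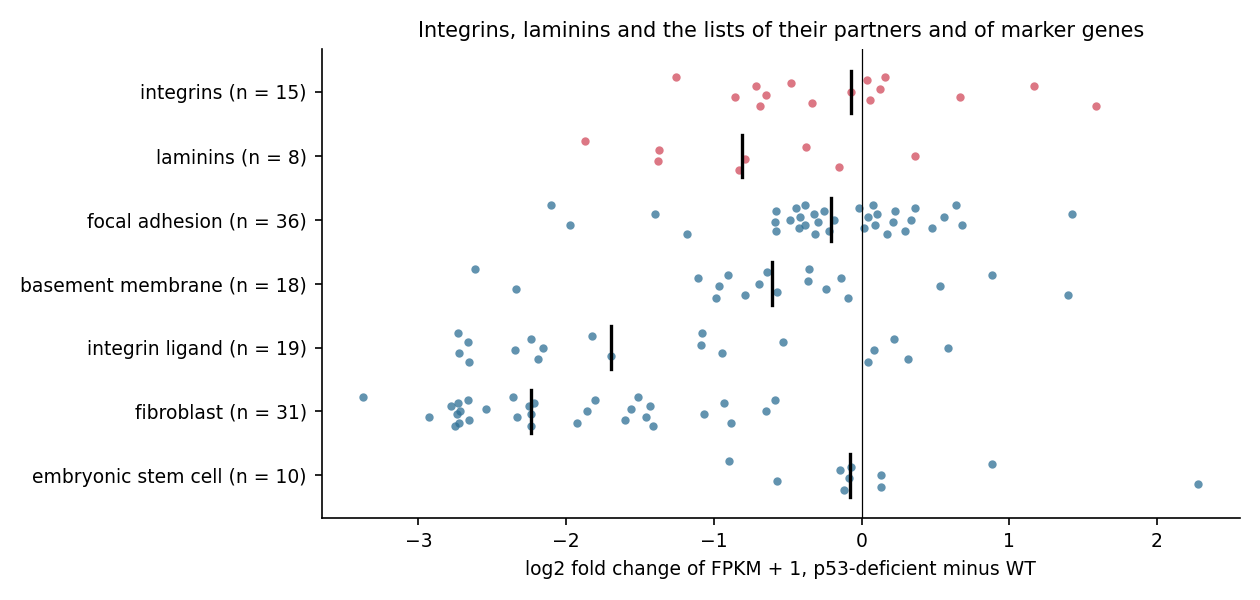
Log2 fold change of FPKM + 1 (x axis, p53-deficient minus WT) for each gene tested among integrins, laminins, focal adhesion genes, basement membrane genes, other integrin ligands, fibroblast markers and embryonic stem cell markers (y axis), with the median of each as a black bar. Medians run from -2.23 for the fibroblast markers to -0.07 for integrins.

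In the genome the members lay on 14 chromosomes, 7 of them on chromosome 2. Neighbours within 200 kb included Itga2 and Itga1, and the trio Itgam, Itgax and Itgad on chromosome 7. Itga1 rose next to Itga2, whose reads were fewer in p53-deficient libraries. Exons of the 23 tested members overlapped those of other annotated genes over at most 7.66% of their length (Itgb4 with a long noncoding RNA gene at 0.0613 FPKM).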

How the data were processed

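RNA of 3 WT and 3 p53-deficient haploid embryonic stem cell libraries was analysed. Libraries were made with the NEBNext Ultra kit after poly-T bead selection, per the labels' protocols, with no strand marking stated. Values are FPKM per gene, as deposited by the authors with a gene length. The submitters' processing notes name build mm10, HISAT2 2.0.5 and featureCounts 1.5.0-p3 without roles, and the handling of multiply aligned reads is not stated in them. FPKM times length gave whole multiples of 1 step per library in 100% of values under 1000 reads (tolerance 0.01), and these rebuilt reads (11536412 to 21218976 per library) give the pooled counts and their 95% exact binomial intervals, adjusted by the library divisor.

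Genes of mean FPKM at least 0.5 were tested on log2(FPKM + 1) using R 4.3.3 and limma 3.58.1, two-sided, with a trend in the prior variance. Members with a mean of at least 1 FPKM (18) are given in every library, except 1 that is counted but not reported here by name or in the plots of single genes. Of each list, up to 3 rises, 3 falls and the most abundant gene not passing are named. All 172 list entries matched. Members, lists and tests were chosen with earlier results of these data known. Copies were sought with BLAST+ 2.17.0 (95% identity, 100 bases) in GENCODE M21, where all 37 members had the same coordinates. Results were recomputed with each library left out, with voom weights on rebuilt reads, with the replicate number as a block, without the variance trend, after quantile or median log2 ratio scaling, without the filter or with one at 5 FPKM, and with pseudocount 0.1. The fit was tested on simulated data. Plots come from Python 3.11.15 and matplotlib 3.10.9.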

Additional observations from a re-analysis of the deposited data

How the results depend on the processing

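Of the 23 members tested, 20 kept their side of the threshold under every one of the 14 alternatives that tested them, and no called member changed sign. The 3 that did not were Itga5, Itga6 and Itgal, whose values stand in the report. Members called numbered 5 higher and 14 lower, and with libraries scaled by their median log2 ratio 4 and 15. Among genes of mean FPKM at least 5 they were 3 higher and 8 lower of 12 tested. Over all genes 5944 of the 7752 tested there were called, 2268 of them lower, against 10074 of 15144 with the filter at 0.5 FPKM. With 1 library left out, members higher ranged from 3 to 5 and members lower from 14 to 15. The 3 came without p53-deficient replicate 3, where Itga6 missed the threshold and Itga1 dropped below the filter. Over all genes, higher and lower calls were 5341 and 4733, against 4258 and 5611 with that scaling, so that split rests on the scaling. The median log2 fold change of the members was -0.75 with a pseudocount of 0.1 and -0.11 without a filter. With the replicate number as a block, the members called were again 5 and 14, and 9766 genes were called in place of 10074. Same-numbered libraries did not deviate together (correlations -0.0328, 0.0142 and 0.00556), so the numbers were not taken as pairs. Among list genes the block moved the calls of Ptk2b (adjusted p = 0.0565) and Smoc1 (0.0497), and 4 trophoblast markers in place of 5 were called higher. Differences in shares kept their sign, except for Itga7 (-0.362 to 0.0442 percentage points with 1 library left out) and Itgb3 (-0.0557 to 0.0471), whose groups overlapped. Depth limits Itgam, Itgad, Itgax, Itgb6, Itgb8 and Lamc3, each with at most 21 reads per group.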
